A study of Mus musculus with 6 samples.

Results

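The voltage-dependent anion channels and the mitochondrial calcium uniporter were examined in gastrocnemius muscle that expressed a constitutively active aryl hydrocarbon receptor (AHR). The 9 genes were Vdac1, Vdac2, Vdac3, Mcu, Mcub, Smdt1, Micu2, Micu3 and Letm1, taken by gene symbol from a table of 49315 genes. Mcub was listed on 2 rows. One carried the Mcub identifier, and the other (ENSMUSG00000029378, with 0 or 1 counts in each library) carried an identifier that the GENCODE M21 annotation assigns to Areg, so only the first was used. Male C57BL6J mice received an intramuscular AAV9 injection at 5 months of age, and the muscle was taken 5 months later. The vector of the control group, AAV9-HSA-GFP (replicates 42, 43 and 46), encoded green fluorescent protein, and that of the treated group, AAV9-HSA-CAAHR (replicates 31, 34 and 36), encoded a mouse AHR from which the ligand binding domain had been deleted. The human skeletal actin (HSA) promoter restricts both transgenes to muscle fibres, whereas the RNA came from whole muscle with its vessels, connective tissue and blood cells. No muscle without virus was analysed here. With quantitative PCR, the authors found selected immune genes not lower in AAV9-HSA-CAAHR muscle than in muscle without virus. They read this as a local immune response in muscle given AAV9-HSA-GFP. The labels do not state that each library came from a separate mouse, so p-values measure the spread between these libraries.

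VDAC proteins form the pores of the outer mitochondrial membrane, through which calcium, ATP, ADP and metabolites pass. Calcium then crosses the inner membrane through the uniporter, whose pore is built from MCU together with the small essential subunit EMRE (encoded by Smdt1). MCUB is a paralogue of MCU that lowers the conductance of the pore, MICU2 and MICU3 are calcium-sensing gatekeepers of the pore, and LETM1 is an inner membrane protein of potassium and calcium exchange. In muscle, calcium entry into the matrix couples contraction to the activity of dehydrogenases that feed the respiratory chain.

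AHR is a transcription factor that binds the xenobiotic response element (XRE), whose core reads GCGTG, or CACGC on the opposite strand. The 250 bases upstream of annotated start sites were taken from RefSeq (GRCm38.p6) and searched for this core on both strands. Of the 9 genes, 6 matched an entry, with 7 start sites in all, and Vdac2, Vdac3 and Micu3 are not shown. A core was present upstream of 5 of the 6 (Vdac1, Mcu, Smdt1, Micu2 and Letm1) and not upstream of Mcub. Across all 32851 upstream windows of the same length, 28.2% held the core, and the median GC content was 52.4%, against 60.4% to 68.4% in the 6 windows with a core and 48.0% in that of Mcub. The longer form TNGCGTG was found in 4.10% of all windows and in none of these 7. Vdac1 had 3 cores within 41 bases of its first start site. Micu2 had 2, at 123 and 84 bases upstream, and Mcu had 1, at 32 bases upstream. These windows are shown because Vdac1 and Micu2 lay on opposite sides in the comparison and Mcu encodes the pore. Capitals mark the XRE core on either strand, each window ends 1 base before the start site, and each is written 5′ to 3′ along the gene's own strand.
Vdac1 (first start site, chr11:52360601-52360850, plus strand): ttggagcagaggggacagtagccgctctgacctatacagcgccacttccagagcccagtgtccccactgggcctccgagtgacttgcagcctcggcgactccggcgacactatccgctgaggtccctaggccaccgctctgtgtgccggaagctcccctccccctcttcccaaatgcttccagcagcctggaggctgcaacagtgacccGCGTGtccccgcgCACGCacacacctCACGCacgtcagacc
Micu2 (chr14:57999263-57999512, minus strand): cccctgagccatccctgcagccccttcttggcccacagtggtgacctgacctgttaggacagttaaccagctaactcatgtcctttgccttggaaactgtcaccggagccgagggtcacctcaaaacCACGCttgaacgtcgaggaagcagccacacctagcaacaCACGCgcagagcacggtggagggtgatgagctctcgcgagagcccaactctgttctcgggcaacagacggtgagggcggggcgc
Mcu (chr10:59616693-59616942, minus strand): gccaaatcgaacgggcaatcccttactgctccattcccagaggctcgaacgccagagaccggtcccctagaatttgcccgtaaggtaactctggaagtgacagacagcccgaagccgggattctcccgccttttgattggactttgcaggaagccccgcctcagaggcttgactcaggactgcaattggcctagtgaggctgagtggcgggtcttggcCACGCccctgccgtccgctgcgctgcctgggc
A match of these letters describes the window and does not show that AHR binds there.

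Libraries held 43432994 to 58825752 counts, and values below are CPM, counts relative to the effective library size, which edgeR's TMM method scales so that most genes keep a like level between libraries. Ahr was at 9.97 to 22.8 CPM in the AAV9-HSA-CAAHR libraries and 1.87 to 2.55 CPM in the AAV9-HSA-GFP libraries, and Cyp1a1, the classic AHR target, was at 1231 to 1680 against 5.85 to 7.74 CPM, so each library matched its label. All 8 skeletal muscle markers were detected, with a summed level of 129152 to 171121 against 201887 to 205515 CPM. The groups differed in more than the transgene. The 9 slow fibre markers summed to 2818, 661 and 2546 CPM in replicates 31, 34 and 36 and to 235, 343 and 474 CPM in replicates 42, 43 and 46. All 9 had a higher fitted level in AAV9-HSA-CAAHR, with 7 not overlapping and none at 0, but none was called at an edgeR adjusted p under 0.05. The 12 macrophage markers summed to 28.3 to 48.0 CPM against 56.2 to 124 CPM, with none at 0. None of the 11 tested was higher in the fit, and none was called. The 10 fast fibre markers summed to 136990 to 192856 against 197284 to 205155 CPM, with 9 lower in the fit, 6 not overlapping and 3 called lower (median log2 fold change -0.46). They were lower in the same libraries as the VDAC genes. With the mean level of the slow fibre markers as a covariate, Vdac1, Vdac2 and Vdac3 had log2 fold changes of -0.20, -0.29 and -0.27, with none called. Covariate and group overlap strongly, and the part of fibre type in the VDAC values was not tested otherwise. Of the 8 skeletal muscle markers, 3 were called lower (Acta1, Ckm and Tnnt3), and Tnnt3 is also a fast fibre marker. Among the other lists, 5 B and plasma cell, 4 neutrophil, 1 T and NK cell and 1 adipocyte marker were called lower. Fewer cells of a type and less RNA per cell cannot be told apart in whole muscle.

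None of the 9 genes differed between the groups at an adjusted p under 0.05 (edgeR quasi-likelihood test, Benjamini-Hochberg over 15847 genes), where 7.60% of all tested genes did, 3.04% higher and 4.57% lower. All 9 passed the filter on low counts, and 3 (Micu2, Vdac2 and Vdac3) had an unadjusted edgeR p under 0.05, as did 23.9% of all tested genes. DESeq2 called 1 of the 9, Micu2, and limma-voom called 0. The libraries of the groups did not overlap for 4 of the 9, with Micu2 higher and Vdac1, Vdac2 and Vdac3 lower in AAV9-HSA-CAAHR. Over all tested genes 29.9% did not overlap, 15.0% higher and 14.9% lower. The median log2 fold change of the 9 genes was -0.08, against 0.01 for all tested genes.

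**Figure D1:**
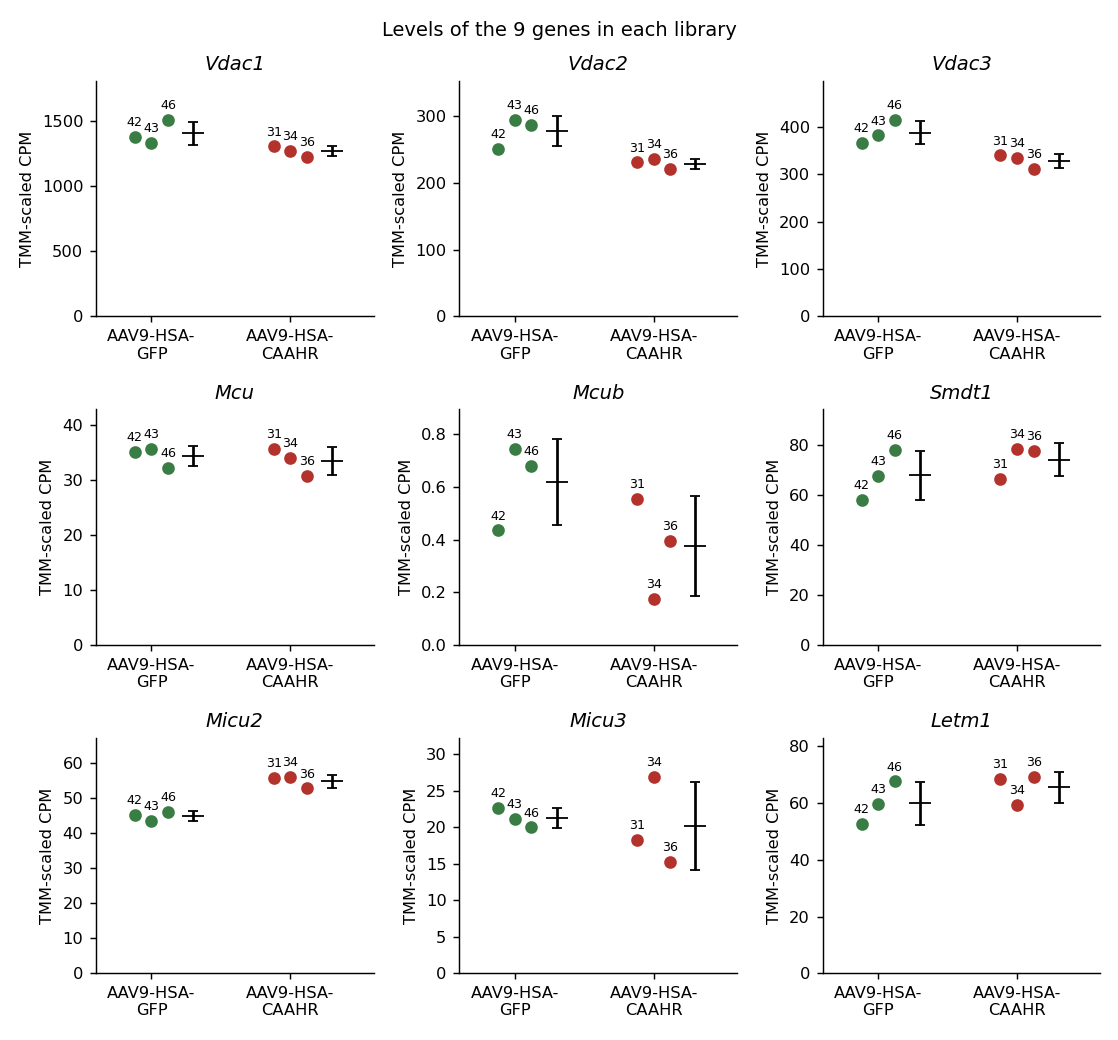
TMM-scaled CPM (linear axes from 0) of the 9 genes in each library, with replicate numbers, and the mean ± SD of each group (n = 3) in black. The AAV9-HSA-CAAHR points lie below the AAV9-HSA-GFP points for the 3 VDAC genes and above them for Micu2, and the groups overlap for the other 5 genes.

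Vdac1, the most abundant of the channels in muscle, (ENSMUSG00000020402, chromosome 11, 52360860 to 52389397, GRCm38) was at 1304, 1267 and 1227 CPM in AAV9-HSA-CAAHR replicates 31, 34 and 36, and at 1380, 1333 and 1504 CPM in AAV9-HSA-GFP replicates 42, 43 and 46. The highest CAAHR library lay just under the lowest GFP library. The log2 fold change was -0.15 ± 0.11 (SE), with a 95% interval of -0.40 to 0.10 and an edgeR adjusted p of 0.448. With library size only, the groups overlapped and the log2 fold change was -0.07, where the median of all tested genes was 0.09.

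Vdac2, the isoform that also binds the apoptosis effector BAK, (ENSMUSG00000021771, chromosome 14, 21825238 to 21845879) was at 231, 235 and 221 CPM in the 3 CAAHR libraries and at 251, 294 and 287 CPM in the 3 GFP libraries. Each CAAHR library was below each GFP library, and replicate 42 was the GFP library nearest to them. Vdac2 had a log2 fold change of -0.28 ± 0.10, with a 95% interval of -0.51 to -0.05, an unadjusted p of 0.0233 and an edgeR adjusted p of 0.136. Vdac2 was lower in the fitted comparison under each of the 15 alternatives run, with log2 fold changes from -0.35 to -0.19 and adjusted p-values from 0.0640 to 0.415.

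Vdac3, the least studied isoform, (ENSMUSG00000008892, chromosome 8, 22577075 to 22593813) was at 340.2, 335 and 312 CPM against 366, 382 and 414 CPM. Again the groups did not overlap. Its log2 fold change was -0.24 ± 0.10, with a 95% interval of -0.47 to -0.01, an unadjusted p of 0.0437 and an edgeR adjusted p of 0.194. A Vdac3 pseudogene, Vdac3-ps1, had 173 to 262 counts, which is 0.916% to 1.21% of those of Vdac3. Only unique reads were counted, so reads that fit both are in neither count and their number is not known here.

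**Figure D2:**
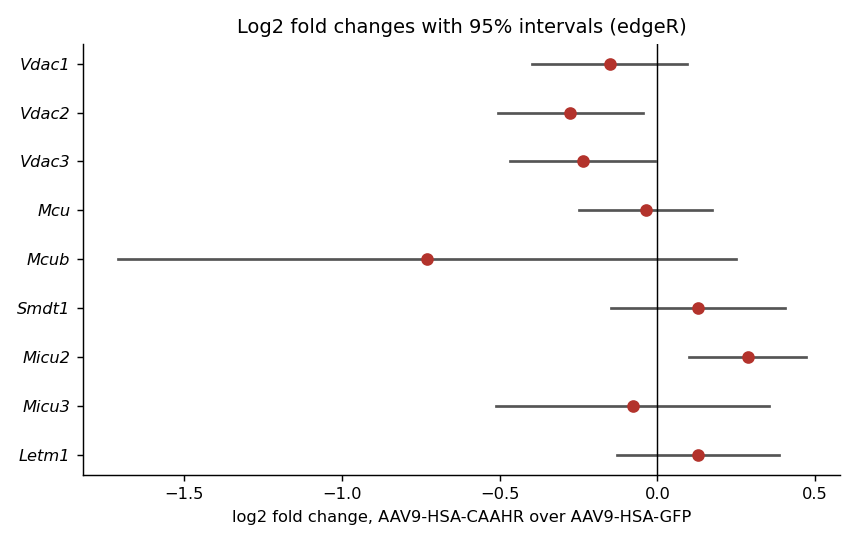
Log2 fold change (AAV9-HSA-CAAHR over AAV9-HSA-GFP) of each gene from the edgeR fit, with 95% intervals as horizontal lines. The unadjusted intervals of Vdac2, Vdac3 and Micu2 leave out 0, the other 6 include it, and Mcub has by far the widest.

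Mcu, the pore subunit, (ENSMUSG00000009647, chromosome 10, 59446984 to 59616692) showed no separation of the groups. It was at 35.7, 33.9 and 30.8 CPM against 35.1, 35.6 and 32.2 CPM. The log2 fold change was -0.04 ± 0.09, with a 95% interval of -0.25 to 0.17 (edgeR adjusted p = 0.860). Its sign turned under 3 of the 15 alternatives, none of which gave a call.

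Micu2, the gatekeeper, had the smallest p-value of the 9 genes. Its level (ENSMUSG00000021973, chromosome 14, 57916261 to 57999262) was 55.6, 55.9 and 52.7 CPM in the CAAHR libraries and 45.1, 43.5 and 46.1 CPM in the GFP libraries. The spread within each group was small, at an SD of 1.77 and 1.33 CPM. The log2 fold change was 0.29 ± 0.08 (95% interval 0.10 to 0.47), which is 1.22-fold, with an unadjusted p of 0.00645 and an edgeR adjusted p of 0.0656. Micu2 passed the threshold with library size only (edgeR adjusted p = 0.0278), where the median log2 fold change of all tested genes was 0.09. Narrowly, it also passed with DESeq2 (adjusted p = 0.04997). Over the 15 alternatives its log2 fold change stayed between 0.21 and 0.37 and the adjusted p between 0.0278 and 0.313, the last with the slow fibre covariate.

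Micu3, the other gatekeeper, (ENSMUSG00000039478, chromosome 8, 40307458 to 40386308) was at 18.3, 26.8 and 15.3 CPM against 22.7, 21.1 and 20.0 CPM. The CAAHR libraries fell on both sides of the GFP range, with replicate 34 above it and replicates 31 and 36 below it. The log2 fold change was -0.08 ± 0.19 (edgeR adjusted p = 0.855). Without replicate 34 it was -0.35 (adjusted p = 0.0964). Replicate 34 was also the CAAHR library with the lowest summed slow fibre level, 661 CPM. With the mean level of the slow fibre markers as a covariate the log2 fold change was 0.59 (edgeR adjusted p = 0.143). The part of fibre type in the Micu3 values was not tested otherwise.

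Smdt1 (ENSMUSG00000022452, chromosome 15, 82338959 to 82349091) was at 66.6, 78.6 and 77.6 CPM against 58.0, 67.8 and 78.0 CPM. The groups overlapped, and the log2 fold change was 0.13 ± 0.12 (edgeR adjusted p = 0.585). It ranged from 0.0276 without GFP replicate 42 to 0.24 without GFP replicate 46, and was 0.0760 without CAAHR replicate 34. In GENCODE M21, 16.6% of its exon bases are shared with Pheta2 on the same strand, so part of its reads could not be assigned to 1 gene.

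Letm1 (ENSMUSG00000005299, chromosome 5, 33739673 to 33782817) was at 68.4, 59.3 and 69.1 CPM against 52.6, 59.7 and 67.6 CPM. The groups overlapped here too, and the log2 fold change was 0.13 ± 0.11 (edgeR adjusted p = 0.550). It ranged from 0.0424 without GFP replicate 42 to 0.22 without GFP replicate 46, and was 0.0812 without CAAHR replicate 36. Replicates 31 and 36, with the highest slow fibre levels, were the highest for Letm1, and replicate 34 lay within the GFP range.

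**Figure D3:**
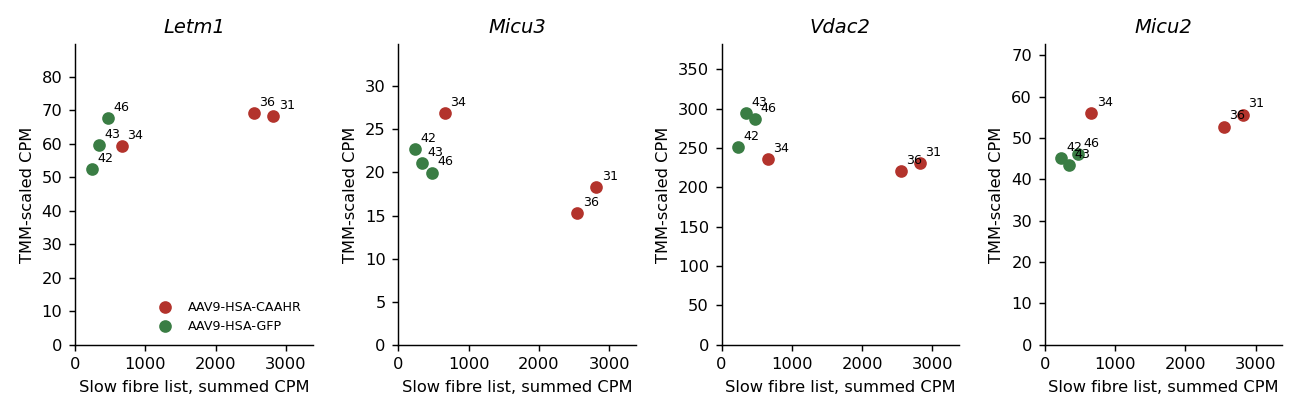
TMM-scaled CPM of Letm1, Micu3, Vdac2 and Micu2 (vertical axes, from 0) against the summed CPM of 9 slow fibre markers (horizontal axes) in each library, labelled by replicate number. Replicate 34 lies near the GFP libraries on the horizontal axis and is the highest library for Micu3. For Vdac2 and Micu2 it lies with the other CAAHR libraries. The points are shown without a test of fibre type.

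Mcub (ENSMUSG00000027994, chromosome 3, 129914960 to 129970206) was barely detected. It had 28, 10 and 24 counts in the CAAHR libraries and 21, 31 and 36 counts in the GFP libraries, or 0.554, 0.175 and 0.394 CPM against 0.435, 0.745 and 0.680 CPM. The groups overlapped. The log2 fold change of -0.73 ± 0.44 had a 95% interval of -1.71 to 0.25 (edgeR adjusted p = 0.351), so even a large decrease could not be told from none at this depth. Without replicate 34, which held the 10 counts, it was -0.40, and without replicate 31 it was -1.12. Markers of blood cells were lower in the AAV9-HSA-CAAHR libraries. Replicate 34 had the lowest summed macrophage level (28.3 CPM) and replicate 43 the highest (124 CPM), as for Mcub. Replicate 31 was below GFP replicate 42 for the macrophage sum (45.3 against 56.2 CPM) but above it for Mcub. The 8 B and plasma cell markers summed to 11.2 CPM (replicate 36) to 19.8 CPM (replicate 31) against 145 to 579 CPM, with 5 called lower. The part of these cells in the Mcub values was not tested.

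Levels were compared between genes per kilobase of annotated exon. In GFP muscle Vdac1 was at 536 ± 33.8 CPM per kilobase (SD, n = 3), Vdac3 at 71.5 ± 4.52, Vdac2 at 58.2 ± 4.75 and Smdt1 at 45.9 ± 6.75 CPM per kilobase. Vdac2 and Smdt1 were neighbours whose ranges nearly touched in GFP muscle and overlapped in CAAHR muscle. The gatekeeper Micu2 followed at 14.6 ± 0.432, Letm1 at 6.21 ± 0.781, Mcu at 4.95 ± 0.269, Micu3 at 3.45 ± 0.222 and Mcub at 0.470 ± 0.124 CPM per kilobase. When the longest protein-coding transcript replaced the union of exons, an alternative chosen after seeing the data, Letm1 (11.4) and Mcu (11.95) changed places with overlapping ranges and the other 7 genes kept theirs. The pore transcript Mcu was thus measured at a far lower level per kilobase than its small partner Smdt1 and the outer membrane channels.

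Shares and ratios within a library do not depend on how libraries are scaled to each other. They were compared with 2-sided exact permutation tests, in which 3 libraries against 3 cannot give a p below 0.1, and p-values were adjusted over 8 compositions. Vdac1 held 81.7%, 81.3% and 81.9% of summed VDAC counts per kilobase in CAAHR replicates 31, 34 and 36, and 81.4%, 79.4% and 80.8% in GFP replicates 42, 43 and 46 (exact permutation p = 0.2, adjusted p = 0.32). The difference of 1.12 percentage points shrank to 0.541 without GFP replicate 43. With transcript lengths, its share was 64.3% against 62.6%, so the share itself rests on the length used. The share of Vdac2 was 7.95%, 8.30% and 8.09% against 8.15%, 9.62% and 8.46%, which overlapped (exact permutation p = 0.2, adjusted p = 0.32). Its difference of -0.628 percentage points shrank to -0.191 without GFP replicate 43. Vdac3 held 10.3%, 10.4% and 10.1% against 10.4%, 11.01% and 10.8%, with the CAAHR libraries below the GFP libraries by a narrow margin (difference -0.487 percentage points, exact permutation p = 0.1, adjusted p = 0.267).

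The summed VDAC level was 609, 595 and 572 CPM per kilobase in the CAAHR libraries and 647, 641 and 711 CPM per kilobase in the GFP libraries. The mean log2 difference was -0.17 (exact permutation p = 0.1, adjusted p = 0.267), and with library size only it was -0.09 (exact permutation p = 0.3). Under that scaling the median log2 fold change of all tested genes was 0.09. Vdac1 made up most of this sum, so the sum says little of Vdac2 and Vdac3.

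The ratio of Micu2 to Mcu, per kilobase, was 3.51, 3.71 and 3.86 in CAAHR muscle and 2.89, 2.74 and 3.22 in GFP muscle. All CAAHR libraries were above all GFP libraries, with a 1.25-fold difference of means on the log scale (exact permutation p = 0.1, adjusted p = 0.267). Smdt1 to Mcu was 8.77, 10.9 and 11.8 against 7.74, 8.91 and 11.4 (exact permutation p = 0.5, adjusted p = 0.571). Its log2 difference of 0.17 was 0.0482 without GFP replicate 42, 0.32 without GFP replicate 46, 0.30 without CAAHR replicate 31 and 0.0819 without CAAHR replicate 36. Micu3 to Mcu was 0.578, 0.892 and 0.561 against 0.728, 0.667 and 0.699, with the CAAHR libraries again on both sides (exact permutation p = 0.9). The ratio of Mcub to Mcu was 0.0817, 0.0271 and 0.0674 against 0.0652, 0.110 and 0.111, with overlap (exact permutation p = 0.3, adjusted p = 0.4). Its log2 difference of -0.80 was -0.32 without CAAHR replicate 34 and ranged down to -1.12 without CAAHR replicate 31.

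**Figure D4:**
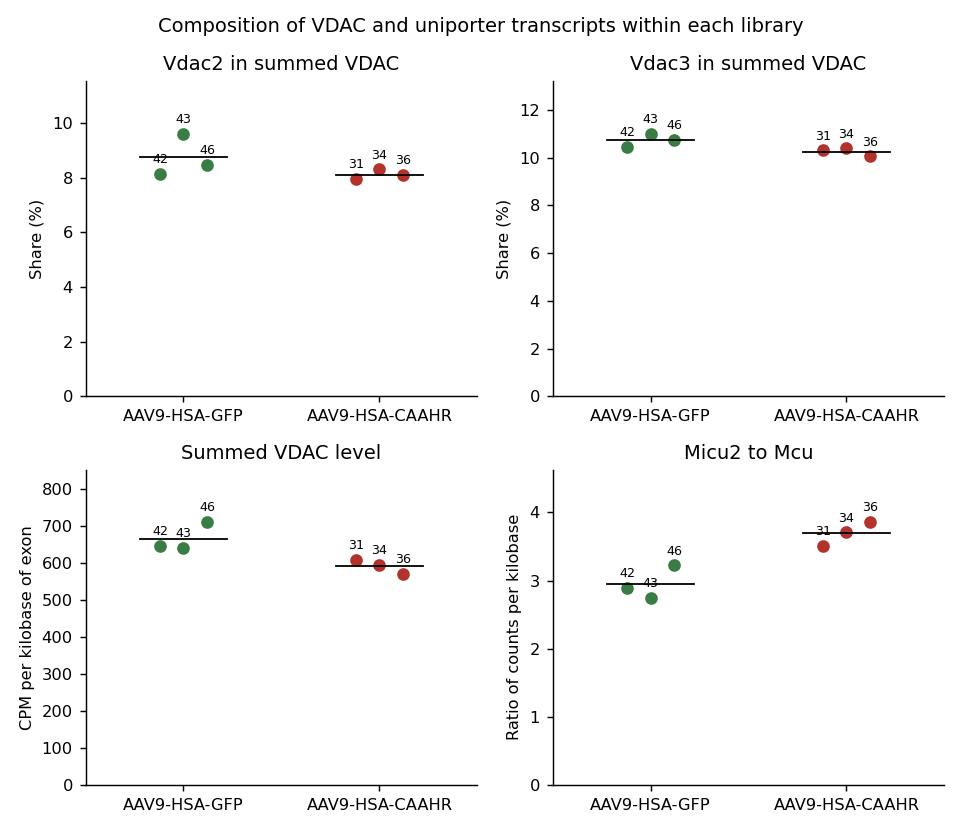
Share of Vdac2 and of Vdac3 in summed VDAC counts per kilobase (%), summed VDAC level (CPM per kilobase of exon) and ratio of Micu2 to Mcu in each library, labelled by replicate number, with group means as lines and axes from 0. The groups are apart for the Vdac3 share, the summed level and the Micu2 ratio and overlap for the Vdac2 share.

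Genes that act beside the channels were taken from 6 lists with 82 genes, all tested. Of these, 7 were called, 4 higher and 3 lower, which is 8.54% against 7.60% of all tested genes. Their median log2 fold change was 0.05. The count depended on single libraries: it was 2, 12 and 1 without CAAHR replicates 31, 34 and 36, and 2, 1 and 1 without GFP replicates 42, 43 and 46. Bcl2 was called in each of these 6 fits and Bcap31 in 3 of them (without CAAHR replicates 31 and 34 and GFP replicate 42). Asph, Itpr1, Ogdh and Pln were called only in the fit without CAAHR replicate 34, and Stim1 in none. With the slow fibre covariate none of the 7 was called, Ogdh was not called with upper quartile scaling, and Pln was not called under either alternative filter on low counts.

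Among 14 further genes of mitochondrial calcium handling, 0 were called by edgeR, 5 had an unadjusted p under 0.05 and the median log2 fold change was 0.05. DESeq2 called 1 of them, Spg7, and limma-voom called 0. With library size only edgeR also called Spg7, and without a filter on low counts it called Efhd1, a calcium-binding mitochondrial protein. With the filter, Efhd1 was lower in AAV9-HSA-CAAHR (log2 fold change -0.72 ± 0.30, edgeR adjusted p = 0.182). Its mean level was 1.71 against 2.80 CPM, and the groups overlapped. Spg7, which encodes a subunit of the m-AAA protease that processes EMRE, was at 126, 132 and 133 CPM against 110, 105 and 108 CPM (log2 fold change 0.28 ± 0.09, edgeR adjusted p = 0.0876). Ghitm, an inner membrane protein of calcium and proton exchange, was at 432, 436 and 405 against 359, 366 and 333 CPM (log2 fold change 0.27 ± 0.10, edgeR adjusted p = 0.137). Both sets of libraries were apart, as for Micu2.

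Of 12 proteins that bind VDAC, 1 was called by edgeR, and the median was -0.12. DESeq2 also called Mcl1, which had a lower fitted level in AAV9-HSA-CAAHR (edgeR log2 fold change -0.29 ± 0.10, adjusted p = 0.107). Bcl2, an outer membrane inhibitor of apoptosis, fell from 10.5, 8.96 and 11.95 CPM in GFP replicates 42, 43 and 46 to 6.41, 5.29 and 5.30 CPM in CAAHR replicates 31, 34 and 36 (log2 fold change -0.89 ± 0.15, edgeR adjusted p = 0.00731). The lists of blood cells were lower in the same libraries, and their part in this difference was not tested.

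Of 14 genes of contact between the reticulum and mitochondria, 2 were called, and the median was 0.08. Itpr1, the inositol trisphosphate receptor that is tethered to VDAC, fell from 54.4, 44.9 and 53.7 CPM to 25.9, 37.3 and 22.2 CPM (log2 fold change -0.84 ± 0.18, edgeR adjusted p = 0.0312). Its CAAHR value nearest to the GFP range was that of replicate 34. Bcap31, a reticulum protein that binds FIS1, rose from 40.3, 35.9 and 37.9 to 48.6, 54.1 and 55.0 CPM (log2 fold change 0.47 ± 0.09, edgeR adjusted p = 0.0168).

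Of 12 calcium-regulated enzymes and carriers, 1 was called by edgeR, with a median of 0.13. DESeq2 also called Pdha1, which had a higher fitted level in AAV9-HSA-CAAHR (edgeR log2 fold change 0.35 ± 0.12, adjusted p = 0.112). Ogdh, a subunit of the calcium-sensitive oxoglutarate dehydrogenase complex, rose from 723, 759 and 771 CPM to 1113, 933 and 1109 CPM (log2 fold change 0.49 ± 0.12, edgeR adjusted p = 0.0337). The lowest CAAHR library was replicate 34, which had the lowest slow fibre level of the CAAHR libraries.

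Of 16 genes of calcium cycling in the sarcoplasmic reticulum, 3 were called by edgeR, 7 had an unadjusted p under 0.05 and the median log2 fold change was 0.20. DESeq2 also called Atp2a2, Cacna1s and Casq2, all with a higher fitted level in AAV9-HSA-CAAHR. Asph, whose products include junctin, fell from 254, 247 and 243 to 166, 194 and 153 CPM (log2 fold change -0.53 ± 0.11, edgeR adjusted p = 0.0205). Stim1, the sensor of calcium stores, rose from 245, 248 and 238 to 327, 312 and 302 CPM (log2 fold change 0.36 ± 0.09, edgeR adjusted p = 0.0486), a call also lost with DESeq2 size factors, upper quartile scaling and a filter of at least 10 counts in every library. Pln, an inhibitor of the slow fibre calcium pump, rose from 3.79, 5.19 and 6.57 CPM to 50.2, 14.8 and 52.6 CPM (log2 fold change 2.92 ± 0.57, edgeR adjusted p = 0.0475). Replicate 34 was the lowest CAAHR library for Pln, as it was for the summed slow fibre markers.

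A list of 14 markers of mitochondrial content held matrix, inner membrane and outer membrane genes, with Cs, the matrix citrate synthase, as the largest part of its sum. None was called by edgeR, DESeq2 or limma-voom, and 0 had an unadjusted p under 0.05 by edgeR, although Mtx2 was called by edgeR without a filter on low counts, with a median log2 fold change of -0.02. Mtx2, an outer membrane import protein, had the smallest p-value (log2 fold change 0.35 ± 0.18, edgeR adjusted p = 0.285), followed by the inner membrane translocase gene Timm23 (-0.18 ± 0.10, edgeR adjusted p = 0.292). The summed level of the content list was 1919 to 2098 CPM in CAAHR muscle and 1933 to 2115 CPM in GFP muscle, which overlapped. Of its 14 genes, 9 had a lower and 5 a higher fitted level. The libraries did not overlap for 2 of the lower genes, Timm23 among them, and 1 of the higher genes. Over all tested genes these shares were 14.9% and 15.0%. The log2 fold changes of the VDAC genes were -0.15, -0.28 and -0.24, and the part of mitochondrial content in them was not tested.

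**Figure D5:**
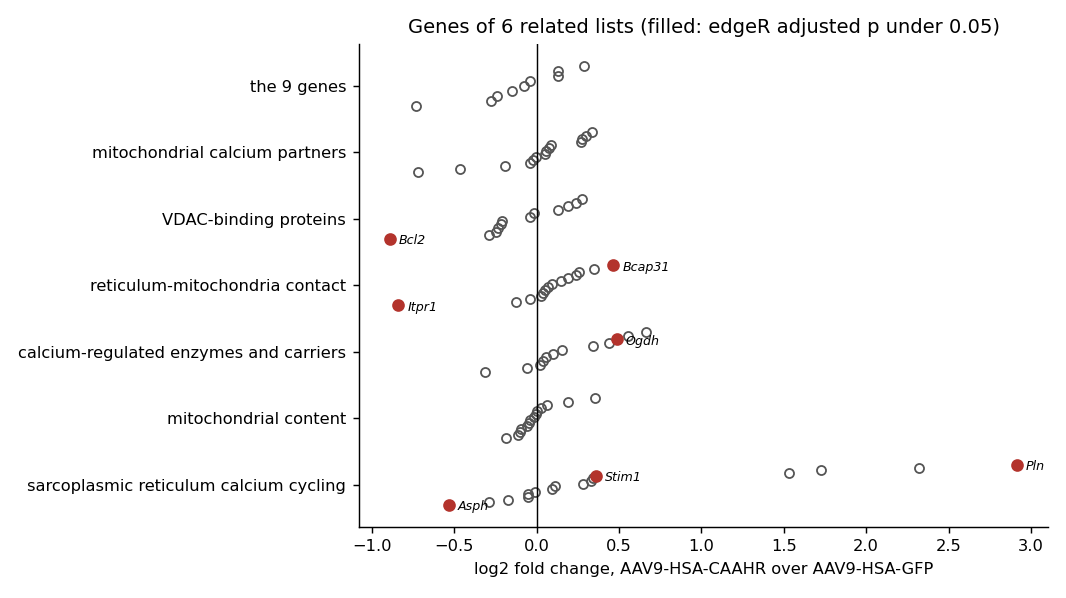
Log2 fold change (AAV9-HSA-CAAHR over AAV9-HSA-GFP) of the 9 genes and of the genes in 6 related lists, 1 point per gene, with filled points for an edgeR adjusted p under 0.05 and their names. None of the 9 genes, of the calcium partners or of the content markers is filled, and the 7 filled points lie in the other 4 lists.

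The genes most like each channel were taken as the 2 with the highest Pearson r of log2 CPM over the 6 libraries, as a description without a test, since all genes share these libraries and their group difference. They were Atad3a (0.991) and Dnmt3a (0.988) for Vdac1, Mrps27 (0.997) and Faap100 (0.995) for Vdac2, and Gm38157 (0.998) and S100a9 (0.993) for Vdac3. For Mcu they were Rps26-ps1 (0.997) and Trim46 (0.993), and for Mcub Apbb1ip (0.992) and Parp12 (0.992).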

How the data were processed

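Gastrocnemius RNA of 3 libraries per group was measured, and the deposited values are whole-number counts per gene, not normalised and not pooled by the authors. Per the methods, poly(A) libraries were sequenced as paired ends. Trimmomatic 0.36 was used for trimming, STAR 2.5.2b for alignment to GRCm38 and featureCounts for unique exonic reads of each gene. Strandedness was not given in the sources used here, so overlapping genes are uncertain.

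R 4.3.3 and edgeR 4.0.16 were used, with filterByExpr (15847 genes tested), TMM scaling, the robust quasi-likelihood F test and Benjamini-Hochberg adjustment at 0.05. Standard errors were derived from the F statistic, and intervals are 95%. Totals were 43432994 to 58825752 counts, and intervals cover the spread between libraries. Exon lengths and positions came from GENCODE M21 (GRCm38), which held 99.3% of identifiers. The genes examined, the pathway and marker lists and the rule for named genes (all 9, and of each pathway list the called genes, otherwise the 2 with the smallest p) were chosen with earlier results of these data known. Alternatives covered scaling, filters, DESeq2 1.42.0 (the test the authors used), limma 3.58.1 voom, edgeR without robust estimation, a slow fibre covariate, other lengths and leaving out each library. The calculations were tested on simulated data.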

Additional observations from a re-analysis of the deposited data

How the results depend on the processing

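No paired analysis was possible because replicate numbers differ between the groups. The count of called members, 0 as reported, was 1 with library size only and 1 with DESeq2 (Micu2 both times), and 0 when any single library was omitted. All tested genes called, 1205 as reported, numbered 2470 without a filter on low counts, 1923 with DESeq2 and 436 with the slow fibre covariate. Omitting single libraries gave 535 (AAV9-HSA-CAAHR replicate 36) to 1698 (replicate 34). Called list genes, 7 as reported, numbered 11 and 13 in the fits without a filter and with DESeq2, and 3 with the covariate (Ckmt2, Gpd2 and Ppif, none of the 7), and omitting single libraries gave 1 to 12. Among the alternatives for member log2 fold changes, 127 kept direction and side of the threshold, 2 were stronger and 6 reversed. Mcu reversed to 0.0448 with library size only and 0.0316 with the covariate, and ranged from -0.0932 to 0.0124 when single libraries were omitted (above 0 without CAAHR replicate 36). Micu3 reversed to 0.59 with the covariate and ranged from -0.35 to 0.0796 when single libraries were omitted (above 0 without CAAHR replicate 36). Letm1 reversed to -0.21 with the covariate, where Mcub was at -2.44. The difference in the log2 ratio of Micu3 to Mcu, -0.0778 as reported, spanned -0.294 to 0.0407 and was above 0 without CAAHR replicates 31 and 36. The other compositions kept their direction, though not always their size. Covariate and group overlap strongly, which limits that fit. The median of all genes was 0.09 with library size only, 0.01 with TMM and -0.06 with upper quartile scaling. The causes were not tested. Counts of 10 to 36 limit what can be seen of Mcub.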
